A study of Homo sapiens with 4 samples.

Results

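The response of MDS-L cells to decitabine (DAC) was read from a pair of arrays, MDS-L with DAC and MDS-L with DMSO, the solvent control, which are 2 of the 4 samples of the series. MDS-L is a human cell line derived from a patient with myelodysplastic syndrome, and it grows only when IL-3 is supplied, so both cultures were kept in RPMI medium with serum and IL-3. The DAC culture received 1 μM of the drug in daily pulses for 5 days and was harvested afterwards. The other 2 arrays hold SKM-1, a human myeloid leukemia line, after the same treatments. Each condition is 1 array of 1 cell line, so no value below has a replicate error and no p-value is given. Every annotated probe set, that is, several short probes read together, was taken, which gave 46826 of the 49395 deposited probe sets and 18132 genes with a probe set of their own.

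DAC is a cytidine analog. Inside the cell it is phosphorylated, in a first step by deoxycytidine kinase, and built into DNA during S phase, where it traps DNA methyltransferases. Copied strands then stay unmethylated, so the drug acts on dividing cells and lowers methylation over rounds of replication. IL-3 signals through the receptor chains IL3RA and CSF2RB to JAK2 and STAT5, and keeps myeloid progenitors alive and dividing.

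Expression is given on the log2 scale of the deposited values, DMSO first and DAC second, and a difference is DAC minus DMSO, where 1 is a 2-fold change. Olfactory receptors, taken as silent in blood cells, set the background of each array at the 90th percentile of their 359 probe sets, 4.84 with DMSO and 5.09 with DAC. A gene counted as measured where either array had its representing probe set over that level, and 12688 genes were. Lower values were set to the background, so a difference from such a value understates the change and is given as "at least". The 470 measured genes that lay above background with DMSO only include 267 for which the raised DAC value gives a difference above 0, which is no bound.

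Of the 12688 measured genes, 459 were at least 2-fold higher after DAC (3.62%) and 404 at least 2-fold lower (3.18%). At 4-fold the counts were 75 higher and 37 lower, and at 8-fold 15 higher and 1 lower. The higher genes include 92 that started under background, and 16 of the lower genes ended there. Differences over all measured genes had a median of 0.04, with 90% of them between -0.84 and 0.83. Counted over annotated probe sets as deposited, the balance was the other way, with 1202 at least 2-fold higher and 1380 lower. No olfactory receptor probe set differed 2-fold as deposited, 0 of 359, and their median difference was 0.11. Where a gene had several probe sets above background, their differences had a pooled SD of 0.27 over 7609 genes, a spread within arrays that leaves out the difference between cultures. All probe sets had the direction of the representing probe set for 238 of 244 higher genes and 231 of 257 lower genes with several probe sets, against 5076 of 7600 over all measured genes. The representing probe set is counted among them, and after raising, a probe set above background with DAC only is always higher. Over all genes many differences lie near 0, where the sign is unstable. These shares, and the directions of probe sets given below, therefore do not test the calls.

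**Figure D1:**
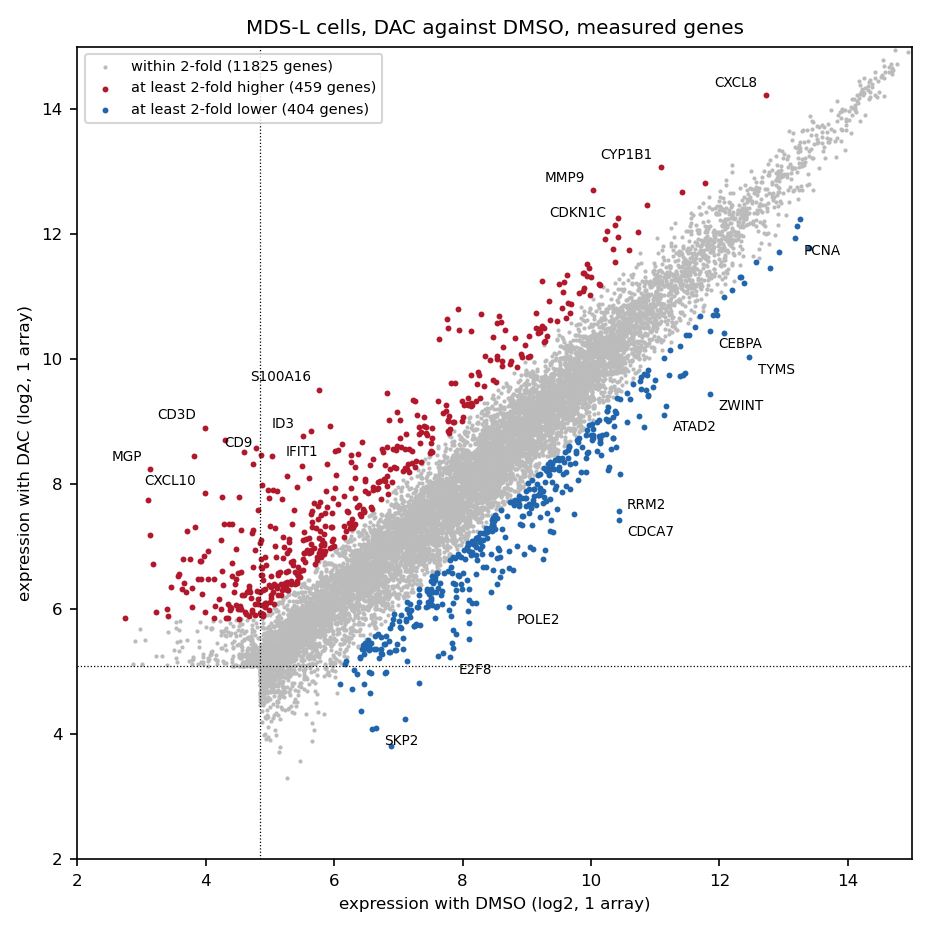
Expression of the 12688 measured genes in MDS-L cells with DMSO (x axis, log2) and with DAC (y axis, log2), 1 array each, with genes at least 2-fold higher in red (459) and lower in blue (404). Dotted lines mark the background of each array, 4.84 and 5.09, and the red points with the lowest DMSO values, such as CD3D and MGP, start under it.

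Control probe sets moved between the arrays as well. The 12 poly-A spike-in probe sets of the array's revised control series, bacterial transcripts added to the RNA sample, were higher on the DAC array by 1.08 to 1.74 (median 1.36), and the 9 hybridization spike-in probe sets of that series by 0.23 to 0.94 (median 0.83). Older probe sets for the same transcripts reached 1.82 and 1.01. Relative to the poly-A spike-ins every difference below is 1.36 lower, which gives 48 genes at least 2-fold higher and 10158 lower (0.47% of the calls higher, against 53.2%), and relative to the hybridization spike-ins 97 and 4018. All directions below are therefore relative to the bulk of the genes on each array, as the deposited values are. The 5′ probe set for ACTB was lower with DAC by 0.70 while its 3′ probe set was lower by 0.06, so the excess of the 3′ signal went from 1.60 to 2.24, and for GAPDH from 0.12 to 0.29. Background probe sets without a target differed by -0.02 at the lowest GC content and by 0.80 at the highest. The part of these shifts in the results was not tested.

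The identity of the cells was read from markers of the line. With DMSO the MDS-L array had CD34 at 8.97, the stem cell factor receptor KIT at 9.15, the aminopeptidase ANPEP (CD13) at 11.95, HLA-DRA at 13.21 and the platelet integrin chain ITGA2B (CD41) at 11.52. FCER1A, the high-affinity IgE receptor chain of mast cells and basophils, was at 14.23 and its factor GATA2 at 12.96. CD3D, CD3G and the B cell antigen MS4A1 lay under background with DMSO, whereas CD3E at 5.02 lay just above it and the monocyte antigen CD14 at 6.59 clearly above it. After DAC the 5 markers named first, FCER1A and GATA2 all stayed within 2-fold on their representing probe sets, with CD34 lowest at -0.84 and ANPEP highest at 0.38. The 3 probe sets of CD34 differed by -1.26 to -0.84, so the representing one was the least lowered.

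Most DNA replication genes had lower values after DAC. Of 30 measured genes for the MCM helicase and the licensing of replication origins, 21 passed 2-fold, none was higher, and all 30 lay below 0, with a median of -1.44. MCM6, a subunit of the helicase that unwinds DNA, went from 10.27 to 8.23 (4.12-fold lower), and its 3 probe sets were all lower. MCM2 went from 9.26 to 7.80, MCM3 from 10.14 to 8.68, MCM4 from 12.08 to 10.42 and MCM7 from 10.78 to 9.52. These 5 of the helicase subunits were lower by 1.26 to 2.04. MCM5, named after its values were seen, was at 7.97 and 7.02, under 2-fold. GINS2, a subunit of the complex that joins the helicase to polymerase, went from 9.29 to 6.94, GINS1 from 10.46 to 8.16, and CDC45, its partner, from 9.09 to 6.96. The loading factors CDT1 and CDC6 were lower by 2.07 and 1.67. In a bulk culture a smaller share of cycling cells and less RNA per cell cannot be told apart.

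At the fork, 21 of 39 measured genes were at least 2-fold lower and none was higher (median -1.04). POLE2, a subunit of the leading strand polymerase, went from 8.72 to 6.03 and was 6.45-fold lower. PRIM1, the primase that starts each strand, went from 9.73 to 7.52, and DNA2, a nuclease of flap processing, from 8.11 to 5.78. PCNA, the sliding clamp, went from 13.18 to 11.93 and so stayed strongly expressed. The enzymes that supply deoxynucleotides followed, with 10 of 29 measured genes at least 2-fold lower (median -0.81). RRM2, the regulated subunit of ribonucleotide reductase, went from 10.43 to 7.58 and was 7.25-fold lower, RRM1, the other subunit, from 10.83 to 8.91, and TYMS, thymidylate synthase, from 12.47 to 10.04. UNG, the glycosylase that removes uracil from DNA, went from 7.90 to 5.61. Over all measured genes 3.18% were 2-fold lower, against 70.0% of the origin list, 53.8% of the fork list and 34.5% of the nucleotide list.

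Many replication genes carry a site for E2F factors, which switch on genes for S phase, next to the start of transcription. A search for the E2F words TTTCGCGC, TTTGGCGC, TTTCCCGC and TTTGCCGC on both strands of RefSeq promoters (250 bases before to 50 after the start, GRCh38.p14, found for 10307 of the 12688 genes) gave a match in 5.24% of all these promoters, 14.7% of those of the lower genes, 2.35% of those of the higher genes and 27.4% (23 of 84) of those of the replication lists. The words are near-palindromes, so matches on both strands can overlap. A match is a string of letters, not a bound site. The promoters of MCM6 and GINS2 are shown, as the 250 bases before the start, because the 2 genes are among the strongest decreases in the origin list with a match. MCM6 (chr2:135876444-135876693, minus strand) holds 4 overlapping matches, in capitals, in 2 identical blocks, and GINS2 (chr16:85688955-85689204, minus strand) holds 1 match at position -31 from the start site.
MCM6: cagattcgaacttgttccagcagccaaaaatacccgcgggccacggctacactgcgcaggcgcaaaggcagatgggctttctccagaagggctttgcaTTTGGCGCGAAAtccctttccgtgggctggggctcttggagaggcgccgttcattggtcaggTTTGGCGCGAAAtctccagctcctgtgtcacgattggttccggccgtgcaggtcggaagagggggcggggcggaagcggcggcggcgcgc
GINS2: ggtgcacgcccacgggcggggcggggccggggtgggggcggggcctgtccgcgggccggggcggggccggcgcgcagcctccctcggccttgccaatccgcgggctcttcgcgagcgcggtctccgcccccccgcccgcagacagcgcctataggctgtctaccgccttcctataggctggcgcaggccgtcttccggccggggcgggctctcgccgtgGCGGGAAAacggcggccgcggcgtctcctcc

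**Figure D2:**
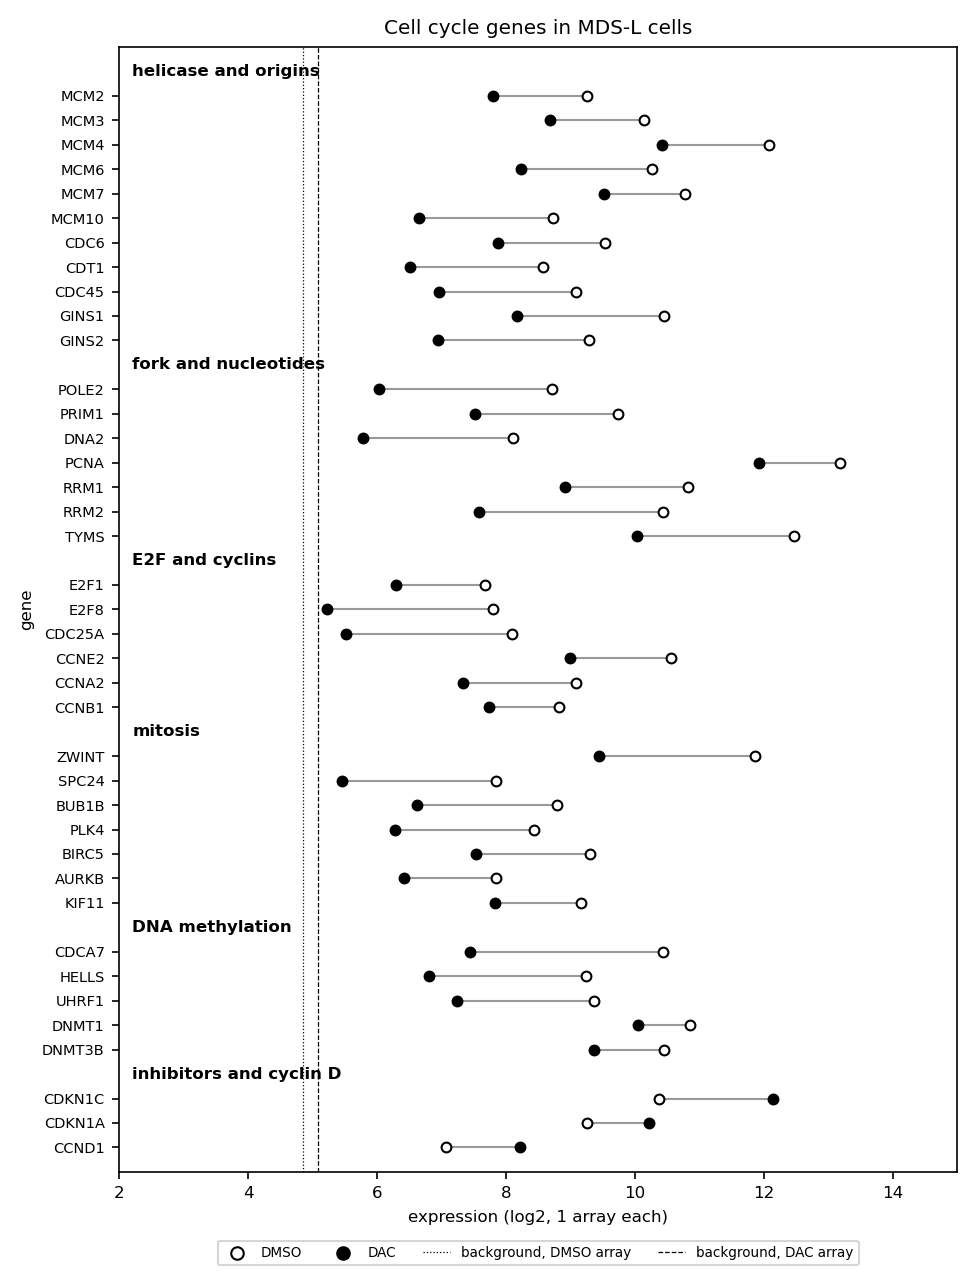
Expression (x axis, log2) of cell cycle and DNA methylation genes (y axis) in MDS-L cells with DMSO (open circles) and DAC (filled circles), 1 array each, values as deposited, with both backgrounds as vertical lines. In the first 5 groups every filled circle lies left of its open circle, and in the last group CDKN1C, CDKN1A and CCND1 lie the other way.

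Among the E2F factors themselves and their partners, 5 of 20 measured genes were at least 2-fold lower and none was higher (median -0.65). E2F8, a repressor form, went from 7.80 to 5.23 and was 5.95-fold lower, FOXM1, which drives genes of the G2 phase and mitosis, from 6.95 to 5.34, E2F2 from 8.07 to 6.47 and E2F1 from 7.68 to 6.30. E2F7 went from 7.04 to 5.70 on its representing probe set, and its second probe set had the other direction. The retinoblastoma gene RB1, the brake of the activating E2Fs, stayed within 2-fold (8.13 to 8.46). Of 27 measured cyclins, cyclin-dependent kinases and their regulators, 11 were at least 2-fold lower. CDC25A, the phosphatase that opens S phase, went from 8.10 to 5.52 (5.98-fold lower), and SKP2, the ligase subunit that marks p27 for destruction, went from 6.65 to under background (at least 2.97-fold lower). The S phase cyclins CCNE2 and CCNA2 were lower by 1.56 and 1.74, and the mitotic pair CDK1 and CCNB1 both by 1.08. CCND1, a D-type cyclin, was the only member at least 2-fold higher, from 7.07 to 8.21 on 4 probe sets of the same direction, while CCND2 (12.89 to 13.25) and CCND3 (10.85 to 10.77) stayed within 2-fold.

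Among 6 measured inhibitors of cyclin-dependent kinases 1 passed 2-fold, 4 lay above 0 and 2 below. CDKN1C (p57), an imprinted gene, went from 10.37 to 12.15, which is 3.44-fold higher, with all 3 of its probe sets higher. CDKN1A (p21), a p53 target, went from 9.26 to 10.23 and CDKN2A from 7.60 to 8.47, both under 2-fold. CDKN2D was at 7.58 and 8.15, CDKN1B (p27) at 9.04 and 8.87, and CDKN2B lay under background on both arrays. CDKN3, a phosphatase of CDK2 expressed in dividing cells, was at 9.48 and 8.54, with 7 of 8 probe sets lower. Of 36 measured p53 targets, 3 were at least 2-fold higher (8.33%, against 3.62% of all measured genes) and none was lower. The list median was 0.09, close to the 0.04 of all genes. The 3 higher genes were ZMAT3 (higher by 1.15), the death receptor TNFRSF10B (6.46 to 7.60) and SESN2 (7.52 to 8.52). MDM2, the feedback inhibitor of p53, was at 7.40 and 7.12 and BBC3 (PUMA) at 8.29 and 8.79.

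Genes of mitosis were lower to a like extent. In the list of mitotic kinesins and spindle genes 27 of 42 passed 2-fold, none was higher and all 42 lay below 0 (median -1.11). PLK4, the kinase that starts centriole copying, went from 8.44 to 6.27, BIRC5 (survivin), part of the chromosomal passenger complex, from 9.31 to 7.54 with all 9 probe sets lower, and its partner kinase AURKB from 7.84 to 6.42. KIF11, the motor that pushes spindle poles apart, went from 9.17 to 7.82, and KIF15, a motor with overlapping work, from 7.84 to 5.67. PLK1 was at 6.77 and 6.07, under 2-fold. In the list of centromere and kinetochore genes 25 of 48 were 2-fold lower or more (median -1.04). ZWINT, which links the kinetochore to the checkpoint, went from 11.86 to 9.45 (5.32-fold lower), SPC24 of the microtubule-binding NDC80 complex from 7.84 to 5.46, and the checkpoint kinase BUB1B from 8.79 to 6.62. MAD1L1, a checkpoint protein of the nuclear pore, was the only higher member, from 7.22 to 8.53 on 3 probe sets. Of 23 measured cohesin and condensin genes 7 were at least 2-fold lower, led by CDCA5 (sororin, 9.46 to 7.61) and the condensin subunit NCAPH (8.32 to 6.68). LMNB1, a lamin of the nuclear envelope, went from 6.56 to under background with all 4 probe sets lower.

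The cell cycle homology region (CHR), a short element bound by the MuvB complex that times mitotic genes, was searched for as TTTGAA or TTCGAA on both strands, and the CCAAT box as CCAAT on both strands. A CHR word was present in 59.7% (46 of 77) of the promoters of the mitosis lists, in 26.2% of those of the lower genes, in 13.5% of those of the higher genes and in 11.7% of all. The replication lists had it in 8.33%. CCAAT was present in 67.5% of the promoters of the mitosis lists and 36.4% of all. The KIF11 promoter (chr10:92592880-92593129, plus strand) is shown with its CHR word in capitals, at position -28.
KIF11: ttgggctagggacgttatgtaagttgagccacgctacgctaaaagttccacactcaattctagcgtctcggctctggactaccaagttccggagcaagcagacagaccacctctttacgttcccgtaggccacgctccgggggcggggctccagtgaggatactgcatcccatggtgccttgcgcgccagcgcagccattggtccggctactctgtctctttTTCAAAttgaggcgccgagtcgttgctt

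Repair by homologous recombination, which acts on replicated DNA, was lower too, with 15 of 40 measured genes of this and the Fanconi pathway at least 2-fold lower and none higher (median -0.77). CHEK1, the checkpoint kinase of stalled forks, went from 9.40 to 7.23 with all 6 probe sets lower, BRCA1 from 8.10 to 6.14, BARD1, its partner, from 8.47 to 6.62, and the nuclease EXO1 from 8.62 to 6.61. Among genes for base excision and mismatch repair, 3 of 24 were at least 2-fold lower, and all 3, UNG, EXO1 and FEN1, also act at replication or recombination.

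In the machinery of DNA methylation, the target of the drug, 4 of 10 measured writers and cofactors and 1 of 14 erasers and readers were at least 2-fold lower. CDCA7, which recruits a chromatin remodeler to replicating DNA, had the largest decrease among genes above background on both arrays, from 10.44 to 7.44, which is 8.02-fold. HELLS, that remodeler, went from 9.25 to 6.81 (5.44-fold lower), and UHRF1, which brings DNMT1 to newly copied DNA, from 9.37 to 7.25. DNMT3B, a de novo methyltransferase, was lower by 1.09 with all 9 probe sets lower. DNMT1, the maintenance enzyme that DAC traps, went from 10.85 to 10.04, under 2-fold, and DNMT3A from 6.54 to 6.99. Among the TET enzymes that oxidize methylcytosine, TET1 went from 6.41 to under background, TET2 was at 9.25 and 9.28, and TET3 at 8.08 and 7.57. No member of the list was 2-fold higher. EZH2, the methyltransferase of Polycomb repression, went from 8.21 to 6.10. On their representing probe sets the genes that handle the drug itself stayed within 2-fold other than RRM1. DCK, the activating kinase, was at 10.10 and 10.05, the deaminase CDA at 4.95 and 5.16, close to background, DCTD at 11.83 and 11.40, SAMHD1 at 6.77 and 7.05, and the transporter SLC29A1 at 7.65 and 6.80. The 5 probe sets of DCTD differed by -1.22 to -0.43, so some passed 2-fold, and the 2 of SLC29A1 by -0.85 and 0.23.

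Genes for making ribosomes were lower by a smaller step. Of 51 measured genes of ribosome biogenesis 46 lay below 0, 5 were at least 2-fold lower and none was higher (median -0.51), with NOP16 (9.20 to 7.85) and RRN3, which starts ribosomal RNA transcription (10.39 to 9.14), the lowest. MYC, which drives this program, was at 12.07 and 11.62. The 52 measured ribosomal proteins stayed within 2-fold, with a median of -0.03 and differences from -0.43 to 0.19. Splicing factors had a median of -0.33 with 3 of 50 at least 2-fold lower, and respiratory chain subunits a median of -0.16 with 0 of 51. Housekeeping genes had a median of -0.10 with 0 of 20.

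**Figure D3:**
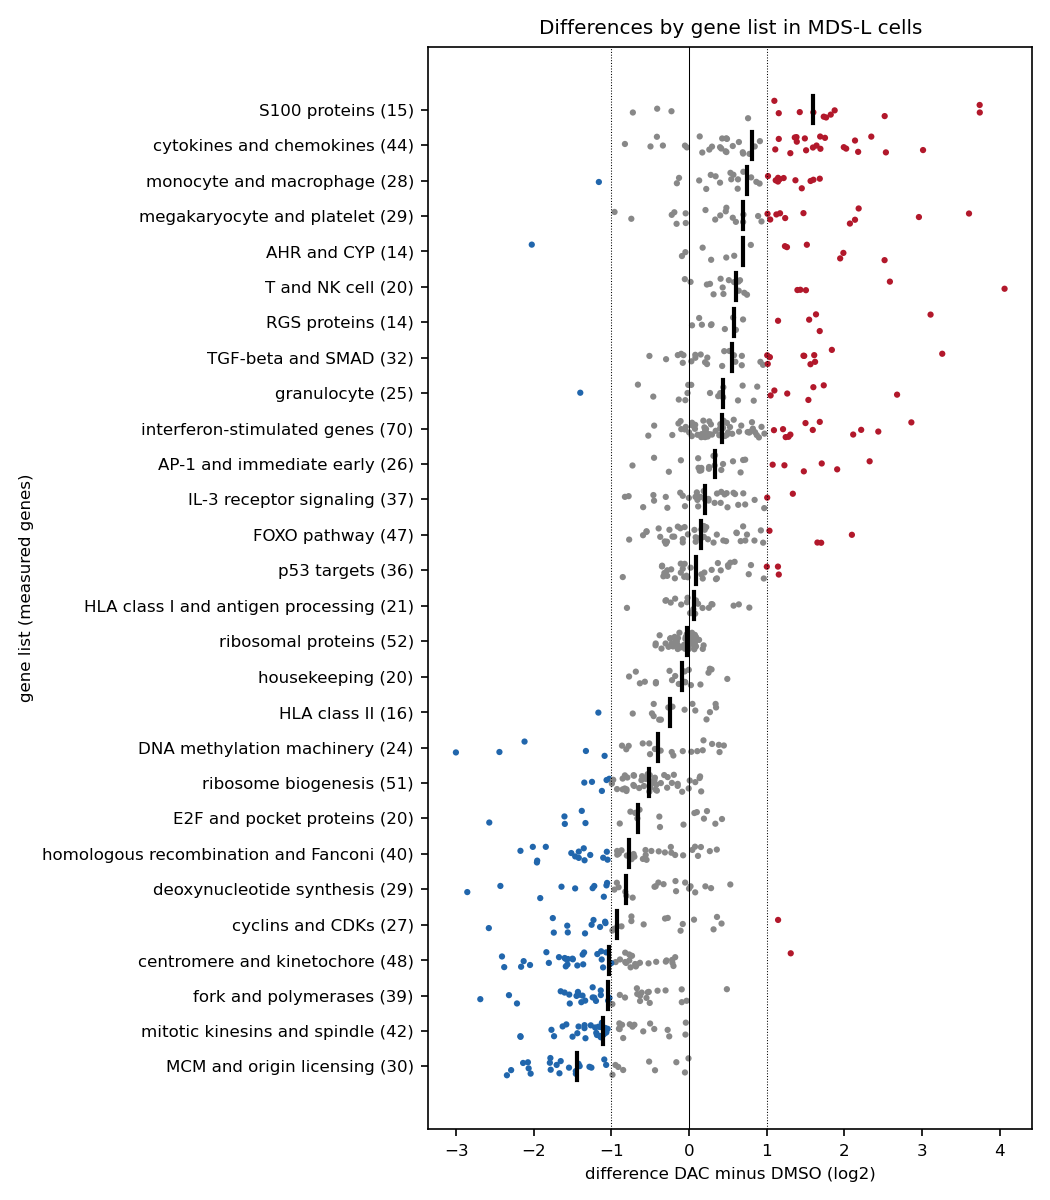
Difference DAC minus DMSO (x axis, log2) of each measured gene in 28 gene lists (y axis, number measured in brackets), in red at 1 or more, in blue at -1 or less, with the list median as a black bar. Medians ran from 1.60 for S100 proteins to -1.44 for MCM and origin licensing, with ribosomal proteins at -0.03.

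Genes that came up from under background have no order among themselves, since their differences are bounds. CD3D, the CD3 delta chain of T cells, went from 3.98, under background, to 8.91 with DAC and was at least 16.7-fold higher on its 1 probe set. Others of this kind were SELENOM, a selenoprotein of the endoplasmic reticulum (4.30 to 8.72), the calcium-binding protein S100A3 (4.78 to 8.58), DLK1, an imprinted ligand related to Notch ligands (4.60 to 8.52), and NTS, the neuropeptide neurotensin (3.82 to 8.45). They were at least 12.2-fold higher. MGP, matrix Gla protein, went from 3.13 to 8.24 and PKIB, an inhibitor of protein kinase A, from 4.73 to 8.32 with all 5 probe sets higher. Further genes of this kind were CXCL10, CLEC1B, CRIP1, QPCT, NNAT, RGL1, SPARC and ABCG1, which reached 7.36 to 7.86, and the chemokine CXCL10 was at the top of them.

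Among genes above background on both arrays, S100A16 led with 5.77 and 9.51, which is 13.4-fold higher on 2 probe sets of the same direction. CD9, a tetraspanin of platelets, went from 4.86, just above background, to 8.46 with all 7 probe sets higher. RAB13, a small GTPase of membrane traffic, went from 5.04 to 8.45, and ID3, which blocks helix-loop-helix transcription factors, from 5.51 to 8.77. TM4SF1, a membrane protein, went from 5.64 to 8.85, RGS1, a brake on G protein signaling, from 4.88 to 7.99, and FGFBP2 from 5.93 to 8.93. MYEOV, MB (myoglobin), SERPINF1, SERPIND1, PROCR and ISG20 were higher by 2.79 to 2.93. ANXA2, which binds membranes in the presence of calcium, went from 7.93 to 10.81 with all 5 probe sets higher. ANXA2P2 is a near-identical copy of it, and its like values, 7.76 and 10.64, may be the same transcript.

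The S100 family, small calcium-binding proteins of which several act as alarm signals outside the cell, had 11 of 15 measured members over the 2-fold line and none lower, with a median of 1.60, and the other 4 of the 19 on the array lay under background on both arrays. Among those above background on both arrays it was 9 of 13, with the same median. Over all measured genes 3.62% were 2-fold higher. S100A8 and S100A9, the pair of neutrophils and monocytes, were already high with DMSO and went from 10.87 to 12.47 and from 9.62 to 11.36. S100P went from 8.48 to 10.35, S100A13 from 6.12 to 8.64, S100A6 from 5.30 to 7.12 and S100A2 from 4.94 to 6.70. S100A10, the partner of ANXA2, came up from under background to 6.27.

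**Figure D4:**
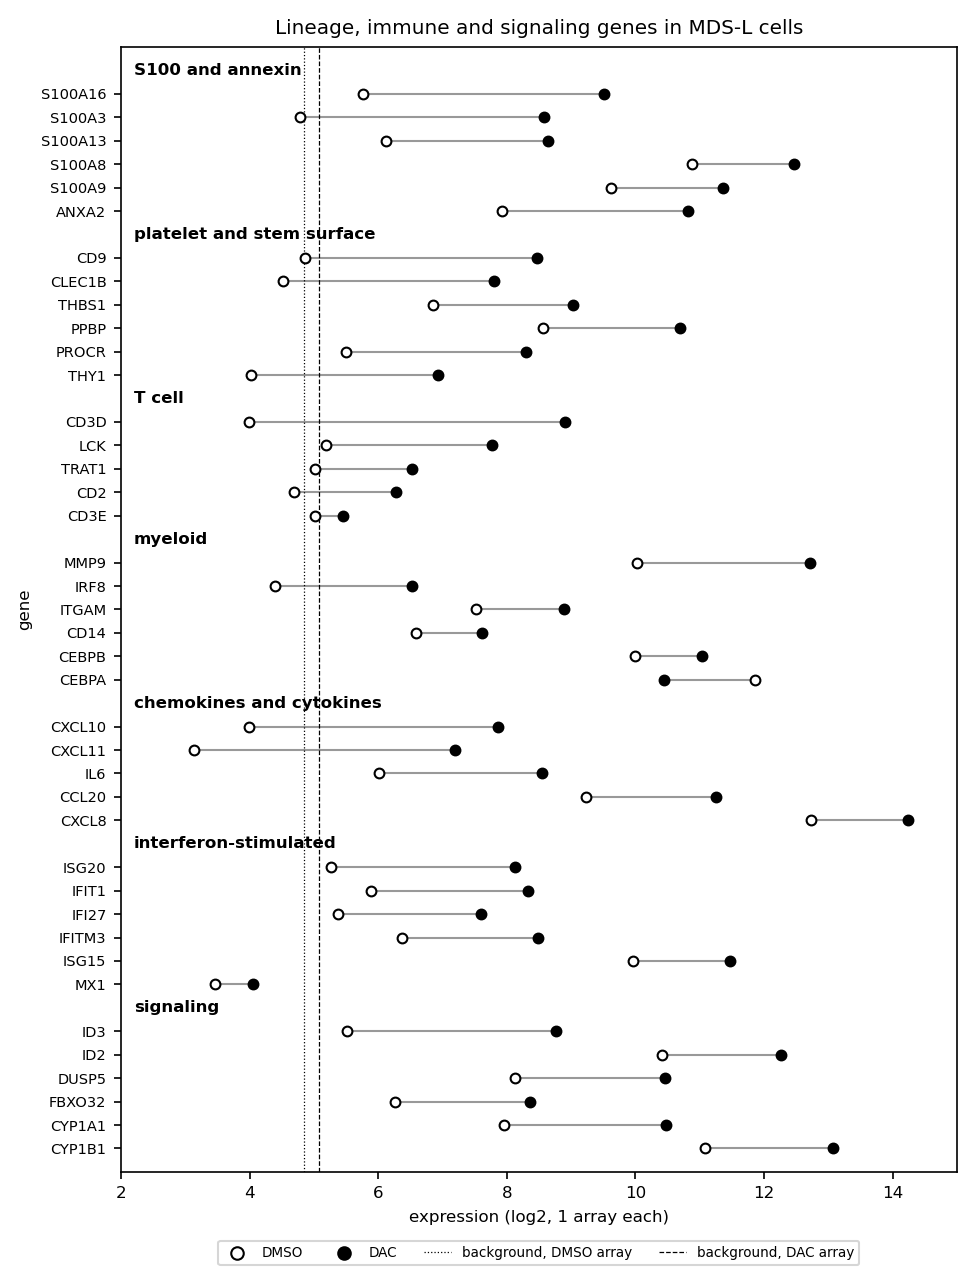
Expression (x axis, log2) of lineage, immune and signaling genes (y axis) in MDS-L cells with DMSO (open circles) and DAC (filled circles), 1 array each, values as deposited, with both backgrounds as vertical lines. CEBPA is the only gene shown that was lower with DAC (11.85 to 10.45), CD3E moved by 0.43, and MX1 lies under background on both arrays.

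Markers of mature blood cells were higher from several lineages at once, and stromal and epithelial markers were higher in a like share. The shares below stand against 3.62% higher and 3.18% lower over all measured genes. Of 29 measured megakaryocyte and platelet genes 11 passed 2-fold upward and none downward (median 0.70), 8 of 25 among those above background on both arrays. Beside CD9 these were the platelet receptor CLEC1B (at least 7.78-fold higher), the adhesive protein THBS1 (6.85 to 9.04), the platelet chemokine PPBP (8.56 to 10.70) and the thrombin receptors F2RL3 (7.27 to 9.34) and F2R (5.84 to 6.89). The integrin chain ITGB3 was at 6.04 and 6.97, PF4 at 5.70 and 6.26, and the 4 measured transcription factors of the list lay between -0.22 and -0.04. GATA1, one of them, was at 6.63 and 6.47.

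In the monocyte and macrophage list 11 of 28 passed 2-fold upward and 1 downward (median 0.75), and 7 of 23 upward among genes above background on both arrays (median 0.63). IRF8, the factor that directs progenitors to monocytes, came up from under background to 6.53, the lectin CLEC7A (dectin-1) went from 4.90 to 6.46, the integrin chain ITGAM (CD11b) from 7.53 to 8.89, and CD14 from 6.59 to 7.61. AIF1, a macrophage protein, was the lower gene, from 12.38 to 11.21, with 4 of 5 probe sets lower. In the granulocyte list 7 of 25 were higher and 1 lower. MMP9, a gelatinase of neutrophil granules, went from 10.03 to 12.71 (6.40-fold), the formyl peptide receptor FPR1 from 7.40 to 8.94 and MS4A3 from 6.80 to 8.06. The primary granule genes ELANE and PRTN3 lay under background on both arrays and MPO was at 5.04 and 5.48. The increases were CEBPB and 6 of 12 measured genes in the group of secondary granule and surface genes. These 6 were MMP9, FPR1, MS4A3 and the S100 genes S100A8, S100A9 and S100A12. The secondary granule genes LTF, LCN2, CAMP and MMP8 of this group were not among them. CEBPA, the factor of early granulocyte commitment, went from 11.85 to 10.45, and CEBPB, a factor of stress granulopoiesis, from 9.99 to 11.04, while SPI1 (PU.1) was at 6.80 and 6.67.

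T cell genes other than CD3D were also higher. Of 40 T and NK cell genes on the array 20 lay under background on both arrays, and 5 of the 20 measured were at least 2-fold higher, 3 of 15 among those above background on both arrays. LCK, the kinase that starts T cell receptor signaling, went from 5.18 to 7.77 with all 5 probe sets higher, TRAT1 from 5.02 to 6.53, CD6 from 4.93 to 6.33, and CD2 from under background to 6.28. CD3E moved from 5.02 to 5.45 and CD3G stayed under background, so CD3D was the one chain of these 3 at 2-fold. B cell genes had 2 of 10 measured members higher, the coactivator POU2AF1 (under background to 6.35) and CD24 (10.15 to 11.19). Among those above background on both arrays it was 1 of 8, and 8 of the 18 on the array lay under background on both arrays. Stromal and epithelial markers, listed as a check for other cell types, had 3 of 8 measured members higher (37.5%), 1 of 6 among those above background on both arrays. This share is close to the 37.9% of the megakaryocyte and platelet list and the 39.3% of the monocyte and macrophage list. The increases were therefore not particular to blood cell markers. The 3 were COL3A1 from under background to 6.96, KRT7 from 5.69 to 6.99 and CDH5 from under background to 6.08. Of the 14 markers 6 lay under background on both arrays.

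Erythroid genes had a share at 2-fold near that of all genes. Among 30 measured erythroid genes the embryonic globin HBE1 was the only one at least 2-fold higher, from 4.87 to 6.67, and KLF1 was at 5.45 and 5.67. Among 20 mast cell and basophil genes CLC (7.43 to 8.82) and RNASE2 (8.47 to 9.67), both granule proteins of eosinophils and basophils, were higher and IL1RL1, the receptor of IL-33, was lower from 7.97 to 6.40 with all 5 probe sets lower. The protease CPA3 was at 8.63 and 9.56. Among stem and progenitor genes PROCR (5.50 to 8.29), THY1 (under background to 6.93) and CD109 (7.34 to 8.66), all surface proteins, were higher, and MYB (11.95 to 10.78), a factor of dividing progenitors, and NPR3 (8.45 to 7.25) were lower. The integrin chain ITGA4, which holds progenitors to stroma, went from 9.68 to 7.92 with all 5 probe sets lower. HOX genes and their cofactors had 0 of 10 measured members at 2-fold.

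Chemokines and cytokines were higher as a group, with 20 of 44 measured genes at least 2-fold higher, none lower and a median of 0.81, and 13 of 35 were higher among those above background on both arrays. They were 15 chemokines, CXCL8 included, and 5 other cytokines, IL6, IL1RN, IL32, IL1A and IL24. CXCL10 and CXCL11, which draw T cells and respond to interferon, came up from under background to 7.86 and 7.19. IL6 went from 6.01 to 8.54 and CCL20, which draws dendritic and T cells, from 9.24 to 11.26. CCL2, the monocyte attractant, went from 9.94 to 11.53, CCL3 from 8.60 to 10.59, and CXCL8, which draws neutrophils, from 12.73 to 14.23. IL1RN, the natural antagonist of IL-1, was higher by 2.18 and IL1A by at least 1.69, whereas IL1B was at 12.10 and 12.87 and TNF at 9.11 and 9.95. Relative to the poly-A spike-ins the cytokine list turns to a median of -0.55.

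Interferon-stimulated genes were higher by a modest step. Of 70 measured genes 61 lay above 0, 12 were at least 2-fold higher (10 of 66 among those above background on both arrays), none was 2-fold lower, and the median was 0.42. ISG20, an exonuclease against viral RNA, went from 5.27 to 8.13 (7.27-fold), IFIT1, which binds foreign RNA ends, from 5.89 to 8.33, IFI27 from 5.38 to 7.60, IFITM3, which blocks viral entry, from 6.37 to 8.49, and ISG15, a ubiquitin-like modifier, from 9.97 to 11.47. MX1 lay under background on both arrays. IRF9, part of the complex that carries the type I interferon signal, went from 8.62 to 9.90, IRF7 from 8.87 to 9.64 and IRF1 from 8.59 to 8.83. The sensors of viral RNA were at 6.80 and 7.35 for RIGI and at 7.85 and 8.47 for IFIH1. In SKM-1 the same list had 35 of 69 measured genes at least 2-fold higher with a median of 1.02, and IFI27 alone differed by 6.61 there against 2.22 in MDS-L. The difference between the lines was not tested, with 1 array a side.

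The element through which interferon factors act was searched for as GAAANNGAA on both strands. It was found in 54.7% (29 of 53) of the promoters of interferon-stimulated genes, in 9 of 11 promoters (81.8%) of those at least 2-fold higher, in 13.8% of the promoters of all higher genes, 6.76% of those of the lower genes and 6.41% of all. The promoters of IFIT1 (chr10:89392373-89392622, plus strand), with 2 matches at positions -115 and -102 from the start, and of CXCL10 (chr4:76023498-76023747, minus strand), with 1 match at -221, are shown with the matches in capitals, as the effector and the chemokine of this group with large increases.
IFIT1: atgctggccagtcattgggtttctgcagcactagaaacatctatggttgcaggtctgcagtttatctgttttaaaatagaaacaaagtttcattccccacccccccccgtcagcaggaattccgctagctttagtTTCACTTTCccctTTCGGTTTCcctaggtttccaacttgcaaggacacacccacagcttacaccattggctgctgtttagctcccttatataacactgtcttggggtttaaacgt
CXCL10: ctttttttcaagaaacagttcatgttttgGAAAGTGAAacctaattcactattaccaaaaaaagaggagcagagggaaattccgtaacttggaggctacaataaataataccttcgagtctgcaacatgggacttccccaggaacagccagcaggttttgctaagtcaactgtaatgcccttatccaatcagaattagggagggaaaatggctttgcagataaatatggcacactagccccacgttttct

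Receptors of the innate system changed in part. LY96, which lets TLR4 see lipopolysaccharide, went from 6.27 to 8.47, TLR8, a sensor of single-stranded RNA, from under background to 5.99, and CD14 was higher by 1.02, and these were the 3 of 19 measured genes of the Toll-like receptor list that passed 2-fold. TLR4 was at 5.22 and 5.62. Among receptors for antibodies 3 of 9 were higher, FCGR2B, the inhibitory IgG receptor (6.07 to 8.54), FCMR (5.99 to 7.78) and FCGRT (8.24 to 9.80). The immune checkpoint list had 4 of 20 higher, TNFSF4 and IDO1 from under background and TNFRSF9 and TNFRSF4, the 2 of 14, from above it, and CD274 (PD-L1) and CTLA4 lay under background on both arrays. In the lists of antigen presentation 0 of 21 measured class I genes were at 2-fold, and among 16 class II genes 1 was, RFXAP, from 8.10 to 6.93. The shares of the antigen presentation lists are near those of all measured genes, 3.62% higher and 3.18% lower. In the Toll-like receptor, antibody receptor and checkpoint lists the higher share lay above 3.62%.

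Feedback and growth signaling genes were higher in small sets. DUSP5 and DUSP1, phosphatases that switch off MAP kinases, went from 8.13 to 10.46 and from 5.75 to 7.65, and JUN, a subunit of AP-1, from 7.03 to 8.74, and in all 6 of 26 measured AP-1 and immediate early genes were at least 2-fold higher. Of 32 measured genes of TGF-beta signaling 10 were higher and none lower (median 0.55), among them the targets ID3, ID2 (10.42 to 12.26), SMAD7, the feedback inhibitor (8.13 to 9.75), and PMEPA1 (5.21 to 6.82). Regulators of G protein signaling had 5 of 14 measured members higher, and 4 of 12 among those above background on both arrays, against 3.62% of all genes. Beside RGS1 they were RGS2, RGS3, RGS16 and RGS13, the last from under background. All 14 lay above 0, but a measured member under background with DMSO cannot lie below 0. The aryl hydrocarbon receptor AHR went from 9.57 to 11.09, and its targets CYP1A1 from 7.95 to 10.47, CYP1B1 from 11.09 to 13.07 and TIPARP from 9.17 to 10.43, so 6 of 14 measured genes of that list were higher. CYP7B1, a sterol hydroxylase of the same list, went from 7.11 to under background.

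Of 37 measured genes of the IL-3 pathway 2 were at least 2-fold higher (5.41%, against 3.62% of all genes) and none was lower. IL3RA was at 9.04 and 9.45, CSF2RB, the shared signaling chain, at 13.62 and 13.72, CSF2RA at 6.91 and 7.01, JAK2 at 7.09 and 6.81, STAT5A at 9.53 and 9.23 and STAT5B at 8.89 and 8.30. Its targets CISH (9.39 and 9.57) and PIM1 (12.09 on both arrays) also stayed within 2-fold. SOCS3, a feedback inhibitor that answers mainly to STAT3, was higher from 6.22 to 7.56 and ID1 from 9.03 to 10.03. Among BCL2 family and death receptor genes BMF, which senses loss of attachment (7.80 to 9.10), and TNFRSF10B were the 2 of 28 at 2-fold, with BCL2L11 (BIM) at 8.94 and 8.72, MCL1 at 11.11 and 11.75 and BCL2A1 at 11.32 and 12.18.

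FOXO factors, which drive arrest and stress genes when PI3K signaling is low, stayed within 2-fold, with FOXO1 at 7.37 and 8.32 on 2 probe sets and FOXO3 at 8.88 and 9.49. In the FOXO pathway list 4 of 47 passed 2-fold, FBXO32 (atrogin-1, 6.27 to 8.36), SGK1 (8.35 to 10.05), BCL6 (6.92 to 8.57 with all 5 probe sets higher) and KLF2 (6.72 to 7.76), and none was lower. The list median of 0.16 lay near the 0.04 of all genes, while the share at least 2-fold higher was 8.51%, against 3.62% of all measured genes. The kinase genes PIK3CD (10.78 and 10.23) and PIK3R1 (7.51 and 7.46) stayed within 2-fold.

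Metabolic and stress lists differed in their share at 2-fold, beside 3.62% higher and 3.18% lower over all measured genes. In cholesterol synthesis 4 of 21 measured genes were lower, ACAT2 (10.03 to 8.79), HMGCS1, which makes the precursor of mevalonate (8.98 to 7.78), FDPS (10.56 to 9.47) and EBP (9.33 to 8.33), and INSIG1, which restrains the pathway, was higher (11.77 to 12.83). Genes of the ATF4 response to amino acid shortage had 5 of 33 higher (15.2%) and none lower (median 0.32), led by the cystine transporter SLC7A11 (7.82 to 9.62) and DDIT4, an inhibitor of mTORC1 (8.42 to 9.99). Among cytosolic and mitochondrial chaperones HSPA6 was higher (5.09 to 6.84), and HSPD1 (12.93 to 11.72) and HSPA4L (6.47 to under background) were lower, with a list median of -0.34. Glycolysis and hypoxia genes had 2 of 35 higher, EPAS1 (5.89 to 7.63) and NDRG1 (9.24 to 10.53), and 2 lower, GPI (10.04 to 8.75) and PDK3 (7.01 to 5.81). The 25 genes of the unfolded protein response had a median of 0.03, with SELENOM the 1 member at 2-fold.

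The lists of cancer-testis, imprinted, histone and del(5q) genes responded unevenly. Of 72 cancer-testis and germline genes on the array 59 lay under background on both arrays, and DAZL, a germ cell RNA-binding protein, was the only one at least 2-fold higher, from under background to 6.72. ATAD2 of that list, which is also an E2F target, was lower from 11.14 to 9.11. Imprinted genes had 5 of 25 measured members higher, DLK1, NNAT, CDKN1C, GRB10 and PHLDA2, and COPG2 lower, and only CDKN1C and PHLDA2, 2 of 20, among those above background on both arrays. Histone genes had 6 of 24 measured members higher, by 1.06 to 1.57, such as H2BC12 (10.73 to 12.04), and none lower. In the region deleted in del(5q) disease 1 of 22 measured genes was higher and 1 lower, CDC25C, 4.55% each and near the shares of all genes. The higher gene was SPARC, from under background to 7.36. Its 6 probe sets differed by 0.25 to 2.52, the lowest close to the gap between the 2 array backgrounds. RPS14 (13.89 and 13.96) and CSNK1A1 (10.32 and 10.46) stayed within 2-fold.

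The promoters of the responding genes differed in their content of CG, the dinucleotide that is methylated. The ratio of CG observed to CG expected from the C and G content had a median of 0.82 over the 10307 promoters, 0.63 for the 340 higher genes with a promoter, 0.44 for the 58 of them that lay under background with DMSO, and 0.88 for the 340 lower genes. A ratio under 0.4 was found in 1548 of the 10307 promoters, and in 37.6% of those of the higher genes and 6.76% of those of the lower genes. Along this ratio the share of genes at least 2-fold higher went down step by step from 8.49% (under 0.2) to 1.31% (over 1.0), and the share at least 2-fold lower went from 2.09% to 4.60%. The order of the higher shares was the same among genes above background on both arrays, from 7.67% to 1.21%. Genes with few CG were also less strongly expressed with DMSO, with a median of 5.89 under 0.2 and 8.65 over 1.0, and the part of expression level in this order was not tested. Methylation was not measured on these arrays.

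The promoters of CD3D and S100A16, 2 of the large increases above, are shown as examples of few CG, with each CG in capitals. CD3D (chr11:118342706-118342955, minus strand) holds 4 CG in 250 bases and S100A16 (chr1:153613138-153613387, minus strand) holds 1, against 24 in MCM6 and 38 in GINS2.
CD3D: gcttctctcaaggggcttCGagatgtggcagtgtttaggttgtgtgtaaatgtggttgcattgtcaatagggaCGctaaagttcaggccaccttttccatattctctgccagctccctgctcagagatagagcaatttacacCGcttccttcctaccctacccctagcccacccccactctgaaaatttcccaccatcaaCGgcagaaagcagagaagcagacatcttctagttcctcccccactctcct
S100A16: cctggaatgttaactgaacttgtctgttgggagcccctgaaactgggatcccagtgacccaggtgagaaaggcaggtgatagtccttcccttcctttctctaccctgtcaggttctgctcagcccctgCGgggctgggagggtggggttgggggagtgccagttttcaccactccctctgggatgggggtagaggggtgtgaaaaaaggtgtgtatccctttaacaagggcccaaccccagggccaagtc

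**Figure D5:**
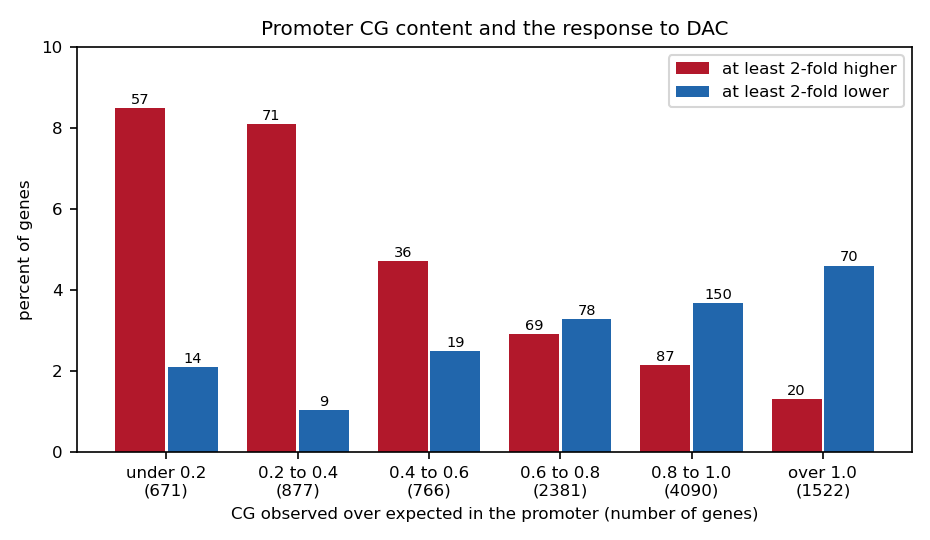
Percent of measured genes at least 2-fold higher (red) and lower (blue) after DAC (y axis) by the ratio of observed to expected CG in the promoter (x axis, number of genes in brackets, number of called genes above each bar). The red bars go down from 8.49% to 1.31%, and the blue bars have their lowest value, 1.03%, at 0.2 to 0.4 and their highest, 4.60%, over 1.0.

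The same lists were read on the SKM-1 arrays. In SKM-1, 0 of 30 origin genes, 0 of 39 fork genes and 0 of 42 kinesin and spindle genes were at least 2-fold lower after DAC, with medians of -0.06, -0.09 and -0.12, against 21, 21 and 27 in MDS-L. The cohesin and condensin list had like medians in both lines, -0.50 in SKM-1 and -0.49 in MDS-L. At 2-fold, however, 0 of 23 of its genes were lower in SKM-1 and 7 of 23 in MDS-L. RRM2 differed by 0.29 in SKM-1 and by -2.86 in MDS-L, TYMS by 0.15 and -2.43, and CDCA7 by -0.34 and -3.00. The S100 list had 4 of 12 higher in SKM-1 (median 0.44). CD3D, MGP and NTS lay under background on both SKM-1 arrays. These values stand side by side without a test.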

How the data were processed

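Expression was measured on Affymetrix PrimeView arrays, 1 per condition, 4 in all. The authors deposited log2 values per probe set. Their methods name RMA normalization in Partek Genomics Suite, whereas the submitters' processing notes name MAS5, so which of these made the values is not settled here. No annotation build is named for the arrays. Of 49395 probe sets, 44994 had 1 gene symbol in the platform annotation, 1832 had several and were left out of gene values, and 2569 were not listed. No symbol changed through its Entrez identifier (0 updated).

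Where a gene had several probe sets, the one with the greatest average across the 4 arrays stood for it. The background was the 90th percentile of 359 olfactory receptor probe sets on each array. A call was a 2-fold difference (1 on the log2 scale) after raising values to background. With 1 array per condition no test was made, and precision is limited by how few arrays there are.

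Genes named were the 15 largest differences each way among genes that exceeded background with DMSO and with DAC, the 15 highest DAC values among higher genes under background with DMSO, the 10 highest DMSO values among lower genes under background with DAC, and, in each of 69 gene lists, preselected members, all members at 2-fold and the 3 largest differences. Members, lists and rules were chosen with earlier results of these data known. Promoters came from RefSeq (GRCh38.p14), matched by Entrez identifier for 10307 of the 12688 measured genes.

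Alternatives covered the background, filter, normalization, choice of probe set and fold, and the spike-in scalings were added after seeing the data. Computations used pandas 2.3.3 and numpy 2.4.6, plots matplotlib 3.10.9, all under Python 3.11.15, and were tested on simulated data.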

Additional observations from a re-analysis of the deposited data

Results flagged for a closer look

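CCL3, a chemokine of monocytes, was 1.99 higher with DAC in MDS-L (8.60 to 10.59) and lower by 2.28 in SKM-1 (10.88 to 8.60). INSIG1 differed by 1.06 in MDS-L and by -1.29 in SKM-1 (11.74 to 10.45), and PTGS2, the inducible cyclooxygenase, by 1.17 and -1.29 (7.05 to 5.76). These 3 genes drew attention because the lines passed 2-fold in opposite directions, and with 1 array a side the difference between the lines was not tested.

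Control probe sets, which measure no gene of the cells, differed between the MDS-L arrays. The median difference, DAC minus DMSO, was 1.36 for the poly-A spike-ins, 0.83 for the hybridization spike-ins and 0.80 for the background probe set of the highest GC content. Their part in the gene results was not tested.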

How the results depend on the processing

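Against 459 higher and 404 lower genes, the counts stayed within 1.5 times under most alternatives. The higher count was 247 with the background set at the 99th olfactory receptor percentile. Leaving out probe sets with multiple matches, over 4211 genes, 156 were higher and 128 lower. The counts were 1150 and 1353 at 1.5-fold and 162 and 89 at 3-fold. Relative to the poly-A spike-ins they were 48 and 10158, and relative to the hybridization spike-ins 97 and 4018, both chosen after seeing the data. A gene's value there is its difference minus 1.36 or 0.83. The share of calls that were higher, 53.2%, was 61.3% under quantile normalization, 58.2% with neither filter nor raising, 56.2% without raising, and between 46.8% and 48.6% with the 99th percentile, the array median as background, centred differences, the median of a gene's probe sets or genes above background on both arrays, so which direction had more genes depends on these settings.

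Of 376 named genes at 2-fold, 215 stayed there and 360 kept their sign under every alternative but the spike-in scalings, where it gave a value. The sign turned in 16 values. With the 99th percentile background, which lies above these genes' DAC values, the differences were 0.30 for CENPH, 0.0175 for CENPP, 0.0644 for CIT, 0.24 for FANCM, 0.41 for HSPA4L, 0.15 for KIF20A, 0.20 for KIFC1, 0.31 for LMNB1, 0.22 for NCAPG2, 0.33 for POLR3G, 0.0799 for RSKR, 0.22 for SKP2, 0.34 for UTP15 and 0.31 for ZGRF1. E2F7 was at 0.47 with the probe set of the highest mean over the MDS-L arrays, and SHMT1 at 0.61 without the multiple-match probe sets. The cause was not tested for these 2.

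No paired analysis was possible because each condition has 1 array, so leaving out an array was not done either.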

Other observations

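Some genes at 2-fold lie next to each other, counting measured genes in chromosome order. These runs were chosen after their values were seen. On chromosome 1, S100A9, S100A12, S100A8 and S100A6 were adjacent and all higher, as were S100A3, S100A2, S100A16 and S100A13, and RGS1, RGS13 and RGS2. On chromosome 17 the chemokine genes CCL2, CCL7, CCL8 and CCL1 formed such a run, and on chromosome 4 PPBP, CXCL5, CXCL3 and CXCL2. The interferon-induced IFIT2, IFIT3 and IFIT1 were adjacent on chromosome 10, the metalloproteinases MMP1, MMP12 and MMP13 on chromosome 11, and the GTPases GIMAP8, GIMAP7 and GIMAP6 on chromosome 7. The 1 run of lower genes was NCAPG, LCORL and PACRGL on chromosome 4.

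By chromosome, 1.54% (8) of the 520 measured genes on chromosome 5 were at least 2-fold higher and 4.62% (24) lower, against 3.62% and 3.18% over all measured genes. Other chromosomes had like lower shares, such as 4.98% on chromosome 13. Chromosome 4 had 5.90% each way and chromosome 20 had 5.63% higher, with chromosomes 1 (5.24%) and 11 (5.03%) close behind. These chromosomes were picked after their values were seen, and the differences between them were not tested.

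Other words were counted in the same promoters, on both strands. The GATA word AGATAA was found in 10.3% of the promoters of higher genes and 5.51% of all. Among higher genes that started under background it was found in 20.7% (12 of 58). The promoters of that group had a median of 53.7% G and C, against 64.7% over all. The STAT word TTCNNNGAA was also more frequent in that group than in all promoters, 17.2% against 6.44%. The E-box word CACGTG was less frequent there, 6.9% against 9.84%. The part of base composition in these shares was not tested. The AP-1 word TGACTCA was found in 7.35% of the promoters of higher genes, 1.18% of those of lower genes and 3.31% of all. The FOXO word GTAAACA was found in 2.65%, 2.06% and 2.22%.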
